A study of Mus musculus with 2 samples.

Results

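Gene deserts are long stretches of chromosome without protein-coding genes, and 1156 H2AZ peaks of the developing mouse brain lay in them. They were 5.37% of the 21546 peaks placed on chromosomes (95% exact binomial interval 5.07 to 5.67%). The peaks came from chromatin immunoprecipitation with sequencing of H2AZ in neural progenitor cells from the brain of C57BL/6 embryos at embryonic day 13 (1 library), beside which the series holds an input library of the same cells (1 library). Only the peak list was analysed. No replicate of either library was available to measure the spread of a value, and the number of reads behind each peak was unknown.

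The desert peaks were selected on position and score. Their midpoint lay outside protein-coding genes and over 100 kb from the nearest end of one, their score was under 15, and no end of a long non-coding RNA (lncRNA) gene lay within 1 kb of the peak. Each peak's score was given by the authors, and the deposited list does not name its scale. A low score and a large distance from genes are therefore properties of the choice, not results. The nearest peaks on either side of the distance limit lay 100218 bp (inside) and 99940 bp (outside) from a gene end, and on either side of the score limit they scored 14.97 (inside) and 15.21 (outside). The nearest lncRNA gene ends were at 1050 bp (inside) and 988 bp (outside). Of 1382 peaks over 100 kb from protein-coding genes, 201 were left out because of an lncRNA gene end and 25 because of a score of 15 or more, so the deserts held few high-scoring peaks of any kind.

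H2AZ is a variant of histone H2A that marks nucleosomes beside active and poised promoters and at many enhancers. Deserts beside developmental genes often hold enhancers that act over long distances, and genes of brain transcription factors are typical neighbours of such deserts. Coordinates are given on GRCm38, counted from 1. Below, a gap is the stretch between neighbouring protein-coding genes, and its interior is the part over 100 kb from both.

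The desert between Snx7, a sorting nexin gene, and Dpyd, a gene of pyrimidine breakdown, held a peak on a microRNA gene. Mir137 encodes a brain microRNA known to act in neural stem cells and neurons, and its hairpin lay under a peak of score 10.7 (chr3:118433337-118435401, width 2065 bp). This peak was one of 3 desert peaks in this gap of 693 kb, the others scoring 7.07 and 6.62 with midpoints 7.81 and 3.27 kb from the middle of the hairpin. All 3 stood together 128 to 136 kb from Dpyd and at least 557 kb from Snx7, and the nearest lncRNA gene end was 62.9 kb from the peak on the hairpin. Of 1005 mouse miRNA hairpins with coordinates in RefSeq, 104 lay over 100 kb from protein-coding genes, and Mir137 was the 1 among them within 5 kb of a desert peak. A miRNA gene was overlapped by 1 of the 1156 desert peaks (0.0865%). Among intergenic peaks 5 to 100 kb from a gene end, with the same limits on score and lncRNA genes, it was 5 of 3297 (0.152%). The mature sequences of Mir137 from RefSeq (GRCm38.p6, plus strand, chr3:118433865-118433887 for the 5p arm and chr3:118433901-118433923 for the 3p arm) are shown because they are the product of the gene under that peak. Capitals mark the seed, bases 2 to 8, which differs between the arms.
mmu-miR-137-5p: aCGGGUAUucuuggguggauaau
mmu-miR-137-3p: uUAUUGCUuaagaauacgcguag

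Sequence under desert peaks could be read where a RefSeq start window (250 bases before to 50 after a transcript start) overlapped one, which held for 3 windows, all of lncRNA genes with the gene's ends more than 1 kb away from the peak. The stretches under the peak are shown for the longer overlaps, with each CG dinucleotide in capitals, since CG-rich sequence is common at H2AZ promoters. At Gm31816, in the desert between Gm4791 and the adhesion gene Cadm1, the whole window lay under a peak of score 8.83 (chr9:47362708-47363007, minus strand) and held 10 CG. At Gm35688, in the desert between the morphogen gene Shh and Rnf32, 215 bases lay under a peak of score 8.05 (chr5:28903559-28903773, minus strand) and held 2 CG. At Gm30444, between 1810013L24Rik and the glutamate receptor gene Grin2a, only 16 bases lay under a peak of score 8.65.
Gm31816: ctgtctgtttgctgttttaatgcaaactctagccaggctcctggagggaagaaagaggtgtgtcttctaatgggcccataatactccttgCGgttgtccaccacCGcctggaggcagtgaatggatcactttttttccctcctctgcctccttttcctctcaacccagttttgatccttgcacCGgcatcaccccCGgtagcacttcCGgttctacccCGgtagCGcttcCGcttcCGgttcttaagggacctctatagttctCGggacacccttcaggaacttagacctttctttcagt
Gm35688: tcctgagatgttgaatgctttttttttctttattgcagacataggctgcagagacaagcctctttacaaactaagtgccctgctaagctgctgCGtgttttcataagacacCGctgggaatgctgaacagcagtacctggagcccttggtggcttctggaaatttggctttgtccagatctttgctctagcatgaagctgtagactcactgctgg

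Of the brain transcription factor genes beside the 15 gaps with most desert peaks, Zeb2 and Myt1l had a start window under a listed peak, and these are shown for comparison with the desert sequences. The Zeb2 window (chr2:45117393-45117692, minus strand, peak score 11.04) faced the desert and held 9 CG. The Myt1l window (chr12:29534352-29534651, plus strand, peak score 7.36) held 6 CG and lay at a start inside the gene.
Zeb2: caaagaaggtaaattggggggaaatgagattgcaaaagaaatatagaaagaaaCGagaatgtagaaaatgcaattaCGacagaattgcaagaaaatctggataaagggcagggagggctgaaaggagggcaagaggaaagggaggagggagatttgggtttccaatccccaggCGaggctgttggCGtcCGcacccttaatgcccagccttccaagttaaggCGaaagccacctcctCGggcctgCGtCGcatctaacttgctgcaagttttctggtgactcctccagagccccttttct
Myt1l: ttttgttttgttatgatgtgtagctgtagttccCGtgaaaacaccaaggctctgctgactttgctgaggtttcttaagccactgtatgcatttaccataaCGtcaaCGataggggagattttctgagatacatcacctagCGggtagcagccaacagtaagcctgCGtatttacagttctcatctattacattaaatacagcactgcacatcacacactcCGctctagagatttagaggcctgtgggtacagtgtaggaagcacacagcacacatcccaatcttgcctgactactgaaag
The motif searched was CG, which reads the same on both strands, and 94.6% of the 32851 RefSeq start windows held at least 1. The median was 4 CG over 11588 lncRNA windows and 13 over 21263 protein-coding windows, and 15 and 21 over those of each kind that lay under a listed peak. All 4 stretches shown had fewer CG than the median of their kind under a peak, though that of Gm35688 is shorter than a window.

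The desert peaks were few per length of sequence, and fewer the farther from genes. The interiors of the 1670 gaps of over 200 kb summed to 757 Mb and held 1153 of the desert peaks, which is 1.52 per Mb (95% exact Poisson interval 1.44 to 1.61). The remaining 3 lay beyond the first or last gene of a chromosome. Intergenic peaks 5 to 100 kb from a gene end that met the same limits on score and lncRNA genes numbered 3297, and those between genes had 4.58 per Mb (4.42 to 4.74). Within the deserts the density fell in every step of distance, with 2.43 per Mb at 100 to 200 kb (582 peaks), 1.92 at 200 to 300 kb, 1.17 at 300 to 500 kb, 0.651 at 500 to 1000 kb and 0.266 (0.157 to 0.420) at 1000 to 3000 kb, where 18 peaks lay in 67.8 Mb. The score did not fall with it, since its median was 7.17 at 100 to 200 kb and 7.01 at 1000 to 3000 kb. Sequence over 1000 kb from genes exists only in gaps over 2 Mb, and long gaps had fewer desert peaks per Mb (below). Distance and gap length therefore cannot be told apart in these densities. Lengths near lncRNA gene ends and assembly gaps were not removed, and the intervals here and below cover counting error only, while neighbouring peaks need not be independent.

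**Figure D1:**
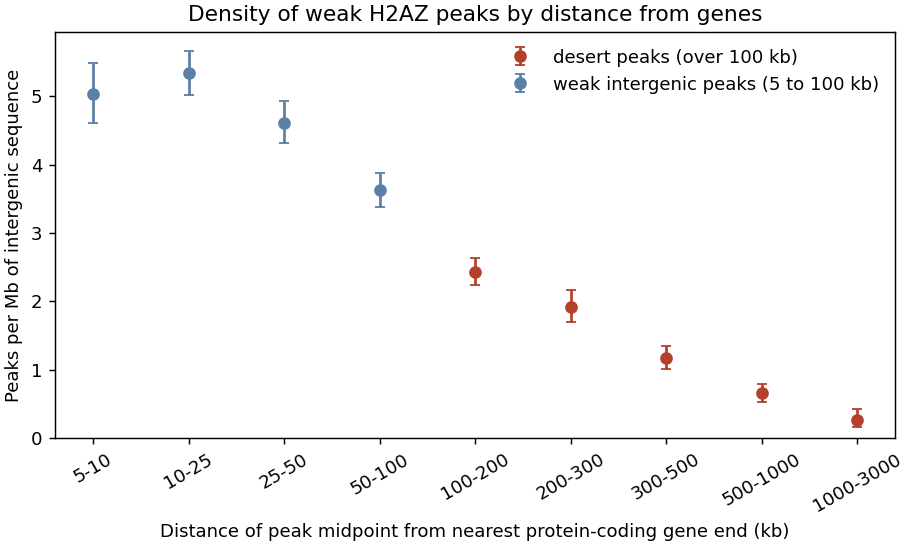
H2AZ peaks of score under 15 without an lncRNA gene end within 1 kb, per Mb of intergenic sequence (vertical axis), by distance of the midpoint from the nearest protein-coding gene end in kb (horizontal axis, bins of unequal width); bars are 95% exact Poisson intervals. The density of desert peaks (red) goes from 2.43 per Mb at 100 to 200 kb to 0.266 at 1000 to 3000 kb, below the 3.62 to 5.34 of the nearer bins (blue).

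By median width, desert peaks were close to intergenic peaks nearer genes under the same score limit, and narrower than peaks at gene ends. They had widths of 710 to 4078 bp with a median of 1536 bp and quartiles of 1358 and 1787 bp. That median compares with 1560 bp for the weak intergenic peaks nearer genes, 2180 bp for the 11127 peaks within 1 kb of a protein-coding gene end and 1923 bp over all peaks. The median score of desert peaks was 7.16 (quartiles 6.26 and 8.65, lowest 3.95), against 7.76 for weak intergenic peaks. Of the desert peaks, 95.5% scored below the median of all peaks, 11.9, a share that the score limit helps to set. Since width goes with score over all peaks (Spearman 0.55 across 21546 peaks of 1 library, a description), widths were set side by side within bands of score. Under a score of 6 the medians were 1591 bp in deserts, 1594 bp in weak intergenic peaks and 1608 bp at gene ends. At scores of 10 to under 15 they were 1657 bp (interval of the median 1582 to 1789), 1726 bp (1686 to 1763) and 2096 bp (2074 to 2119). Peaks at gene ends were thus wider than desert peaks of the same band in the upper bands but hardly so in the lowest. In the top band the intervals of desert and weak intergenic peaks overlapped. Scores still differed within that band, with a median of 12.8 at gene ends against 11.3 in deserts, so widths there were not compared at equal score. Among desert peaks alone width scarcely went with score (Spearman 0.038, 1156 peaks). The score limit narrows the range of scores, and weak intergenic peaks under the same limit had a value of 0.113. Among desert peaks score scarcely went with distance from genes either (Spearman -0.055).

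**Figure D2:**
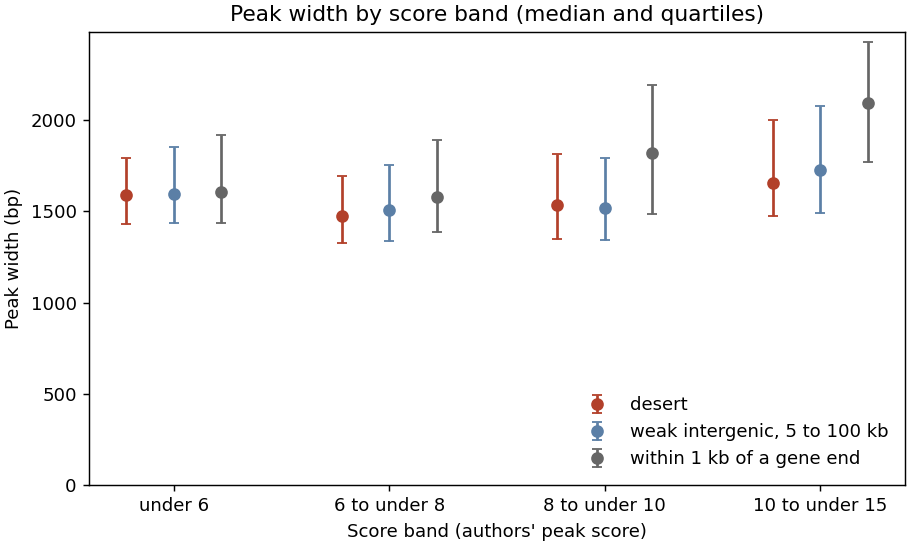
Peak width in bp (vertical axis) by band of the authors' score (horizontal axis) for desert peaks (red), weak intergenic peaks 5 to 100 kb from a gene end (blue) and peaks within 1 kb of a gene end (grey); points are medians and bars run between quartiles. The medians lie between 1591 and 1608 bp under a score of 6, and in the top band the peaks at gene ends, at 2096 bp, stand above the 1657 bp of desert peaks.

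The highest, widest and most remote desert peaks lay beside genes of several kinds. The highest score, 14.97, belonged to a peak 204 kb from Pou3f3, a POU-domain transcription factor gene of neural progenitors and neurons (chr1:42490702-42492542). It was followed by a peak of 14.91 between Celf4, which encodes a neuronal RNA-binding protein, and Pik3c3 (chr18:28076812-28079144). This peak lay somewhat nearer to Pik3c3 (2188 kb) than to Celf4 (2323 kb). Next came peaks between Rad51b and Zfp36l1 (14.6, 117 kb from Rad51b), between Rragc and Pou3f1 (14.55, 242 kb from Rragc) and between Wac and the Wnt receptor gene Fzd8 (14.3, 301 kb from Fzd8). The widest measured 4024 bp among peaks with a gene on both sides and lay between Tnp1 and Tns1, inside an lncRNA gene, with a score of 8.95. The others of the 5 widest, 3499 to 3712 bp, lay in the gaps between Tmem161b and Ccnh, Slc24a2 and Mllt3, Slc10a2 and Efnb2, and Nmbr and Cited2, with scores of 5.46 to 10.4. Of these, the peak between Tmem161b and Ccnh also lay inside an lncRNA gene. The peak of score 14.91 between Celf4 and Pik3c3 was also the most remote, 2188 kb from the nearest protein-coding gene. It lay inside an lncRNA gene, however, with an lncRNA gene end 6.86 kb away. In the same desert, 2 further peaks stood 1764 and 1638 kb from the nearest protein-coding gene. A peak of score 5.97 between the protocadherin genes Pcdh20 and Pcdh9 lay 2017 kb from the nearer gene, and one of 9.25 between Slitrk5, which encodes a neuronal adhesion protein, and the glypican gene Gpc5 lay 1500 kb away.

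Of the 1670 gaps of over 200 kb, 542 held at least 1 desert peak (32.5%). A single one was found in 271 of them, 2 in 123, 3 in 68, 4 in 39 and 5 or more in 41, and the last held 276 peaks (23.9% of all). Longer gaps held a peak more often, 14.1% of gaps of 200 to 300 kb and 57.9% of the 76 gaps over 2 Mb, but fewer per Mb of interior, 4.10 (3.33 to 4.99) against 0.650 (0.544 to 0.770). Annotated genes other than protein-coding ones lay under 221 of the 1156 desert peaks (19.1%), the same share as under weak intergenic peaks (19.1%), and most of them were lncRNA genes. A pseudogene was overlapped by 9 of 1156 (0.779%), against 2.15% of weak intergenic peaks, and an lncRNA gene by 209 (18.1%), against 15.3%.

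The gap with most desert peaks lay between Bcl11a, a zinc finger transcription factor gene of developing neurons, and Fancl, which encodes a ubiquitin ligase of DNA repair. This gap of 2214 kb on chromosome 11 held 13. In order from Bcl11a they scored 7.29, 6.18, 11.6, 7.16, 8.31, 7.76, 5.97, 6.86, 9.42, 8.05, 6.87, 6.56 and 5.89. They began 132 kb from the end of Bcl11a and stopped 515 kb short of Fancl, with 7 nearer to Bcl11a and 6 nearer to Fancl, so they were spread through the gap. The highest, 11.6, stood 566 kb from Bcl11a with another peak 2.87 kb from it by midpoint (chr11:24739247-24740759 and chr11:24742049-24743687). Bcl11a itself had a peak of 12.8 within 1 kb of an end, and Fancl one of 16.97.

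The gap between Tmem38b, an ion channel gene of the endoplasmic reticulum, and Zfp462, a zinc finger gene of neural development, held 12 desert peaks in 1082 kb of chromosome 4. Their scores from Tmem38b to Zfp462 were 11.04, 9.55, 8.05, 5.97, 6.86, 14.0, 9.35, 8.59, 6.97, 6.51, 8.05 and 5.07. Of these, 8 lay nearer to Zfp462, and 5 stood within 52.6 kb of each other, 292 to 342 kb from it, the most peaks of any cluster in which neighbouring midpoints were at most 25 kb apart (chr4:54601207-54653840). The gap had 13.6 desert peaks per Mb of interior.

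The gap between Tmem182 and Pou3f3 on chromosome 1 held 11 in 1839 kb, with scores of 9.38, 6.56, 6.86, 5.35, 4.97, 8.35, 6.86, 7.16, 4.97, 14.97 and 5.67 in order towards Pou3f3. The last 6 of them lay within 453 kb of Pou3f3, and no peak lay within 1 kb of an end of either gene. The gap of 4511 kb between Celf4 and Pik3c3, a lipid kinase gene of autophagy, also held 11, scoring 4.94 to 14.91 with a median of 7.16. Per Mb of interior that was 2.55, against 6.71 in the gap beside Pou3f3.

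Zeb2, a zinc finger homeobox gene of neural crest and neurons, and Acvr2a, an activin receptor gene, bounded a gap of 3697 kb on chromosome 2 with 10 desert peaks. Their scores ran from 5.07 to 9.94 with a median of 6.62. A single one, of score 5.37, lay nearer to Zeb2, 513 kb from it. The other 9 lay 182 to 715 kb from Acvr2a and at least 2982 kb from Zeb2, so the long middle of the gap held none. Both genes have the promoter at the end that faces this gap.

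Myt1l, a zinc finger transcription factor gene of neurons, and Eipr1, a gene of vesicle traffic, bounded a gap of 660 kb on chromosome 12 with 9 desert peaks. From Eipr1 to Myt1l they scored 10.1, 8.35, 7.46, 8.35, 7.46, 13.1, 9.84, 14.0 and 12.5. The 4 peaks nearest to Myt1l, 159 to 237 kb from it, included the 3 highest. At 19.6 per Mb of interior this gap was about as dense as the gap between Cyria and the proto-oncogene Mycn, with 7 peaks of score 5.07 to 11.9 at 19.7 per Mb.

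**Figure D3:**
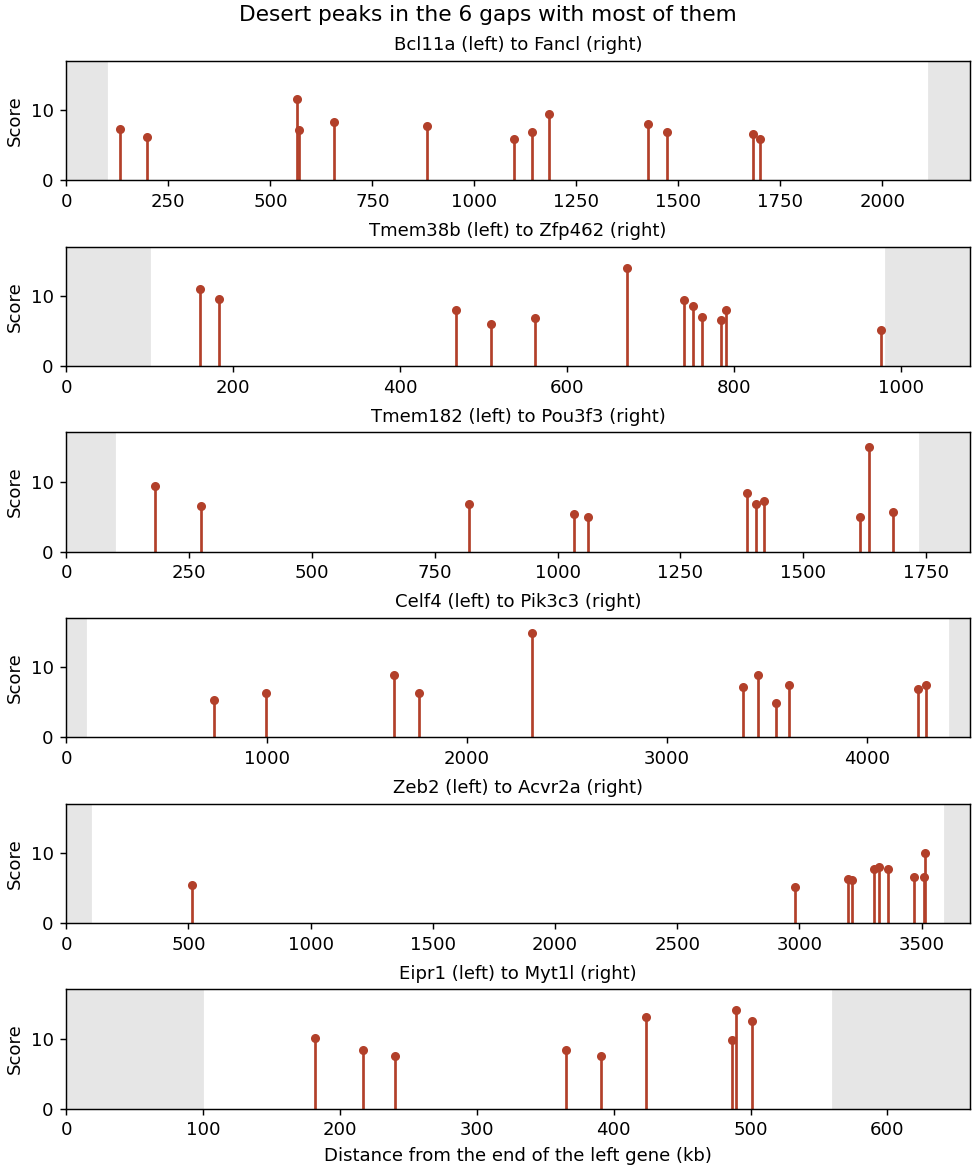
Desert peaks in the 6 gaps that held most of them; each line is a peak at its midpoint, in kb from the end of the left gene (horizontal axis, a scale of its own in each panel), with the authors' score as height (vertical axis, no unit named). Grey marks the 100 kb beside each gene, where no desert peak can lie; 9 of 10 peaks beside Zeb2 lie towards Acvr2a, and 5 of the 12 peaks beside Zfp462 form a cluster.

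The gap between Slc4a3 and Epha4 on chromosome 1 also held 7 desert peaks, tied with the last of the first 15 and had fewer per Mb (4.35). Of the other gaps among the first 15, the gap of 400 kb between the forkhead gene Foxl1 and 1700018B08Rik held 7 desert peaks 112 to 252 kb from Foxl1, or 35.0 per Mb of its interior of 200 kb, with scores of 7.16, 8.95, 5.97, 13.7, 6.86, 8.65 and 14.0 from Foxl1 on. The gap on the side of Sox2 towards the lipid flippase gene Atp11b had 7, scoring 5.46 to 9.55. Sox2, the transcription factor gene that maintains neural progenitors, was the nearer gene for 5 of them, and the 4 nearest lay 122 to 217 kb from it. The gaps with 8 were those between Kif2a (a kinesin gene) and Zswim6, Rps24 (a ribosomal protein gene) and Zmiz1, Usp25 (a deubiquitinase gene) and Cxadr, Ttll7 (a tubulin ligase gene) and Adgrl2 (a latrophilin gene), and Epha7 (an ephrin receptor gene) and Map3k7. Zfp608 and Gramd3 bounded a gap with 7, of which 6 lay nearer to Gramd3. Among gaps with at least 500 kb of interior the densest were those of Kif2a (15.9 per Mb), Zfp462 (13.6), Rps24 (10.5), Mn1 and Cryba4 (6 peaks, 10.2) and Rragc and Pou3f1 (5 peaks, 9.60). All 5 peaks beside Pou3f1 lay nearer to Rragc, 112 to 318 kb from it.

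Long deserts without any desert peak were also found. The longest was the gap of 4278 kb between Cntnap5b, a gene of the neurexin family, and the cadherin gene Cdh20. It was followed by the gaps between Tenm3 and Aga (3989 kb), Slc39a10 and Tmeff2 (3975 kb), Pcdh7 and G6pd2 (3676 kb) and Igfbp7 and Adgrl3 (3611 kb). Apart from 1 peak between Tenm3 and Aga that had a high score or an lncRNA gene end beside it, these interiors held no listed peak at all.

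Genes beside the deserts were then counted by list. Only genes next to a gap of over 200 kb could have a desert peak beside them, which held for 2778 protein-coding genes, and 1007 of these had at least 1 (36.2%, median 0 per gene). Both genes of a gap were counted for its peaks, and a gene could have 2 such gaps. Genes were therefore not independent, and the intervals of shares of genes here and below do not allow for this. Of 117 brain transcription factor genes 79 were next to such a gap, and 57 of the 79 had a desert peak in it (72.2%, interval 60.9 to 81.7%, median 1), 30 of them at least 3 (38.0%, against 11.1% of all). Their gaps were also longer, with a median interior of 521 kb per gene against 249 kb over all. Bcl11a had 13, Pou3f3 11, and Sox9, a gene of neural stem cells and glia, and Zeb2 had 10 each, for Sox9 over 2 gaps. After Myt1l and Sox2, with 9 each, came Nfib with 7, Pou3f2 and Sox11 with 6, and Pou3f1, Satb1, Tshz1 and Zbtb20 with 5. The counts of Sox2, Nfib, Sox11 and Satb1 were also over 2 gaps. Those without any included Dach2, Pou3f4 and Sox3 on X, and Dach1, Pax6, Tbr1, Emx2 and Foxp2 on autosomes. On autosomes alone the share was 75.7% of 74 genes, against 42.2% of all 2344.

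Gaps beside brain transcription factor genes had a higher density of desert peaks than all other gaps together, in every length class. Counting each gap once, those with such a gene on a side held 192 desert peaks in 57.1 Mb of interior, 3.36 per Mb (2.90 to 3.87), against 1.37 (1.29 to 1.46) in the other gaps. In gaps over 1 Mb the values were 2.86 (2.31 to 3.49) and 0.737 (0.656 to 0.825), in gaps of 500 kb to 1 Mb 3.62 (2.84 to 4.55) and 2.00 (1.80 to 2.22), and in gaps of 200 to 500 kb 7.13 (4.47 to 10.8) and 2.77 (2.46 to 3.11). On autosomes the values over all lengths were 3.55 (3.06 to 4.09) and 1.59 (1.49 to 1.69). Pooled over gaps, the peaks showed no clear placement towards the transcription factor gene. In the 98 gaps with exactly 1 such gene, 101 of 191 desert peaks (52.9%, interval 45.5 to 60.1%) lay nearer to it than to the gene on the other side. Single gaps differed, with 1 of 10 peaks nearer to Zeb2 and 8 of 11 nearer to Pou3f3. Peaks of the same gap need not be independent, so the pooled share does not show that placement is absent. The gaps of the list still held 16.6% of the desert peaks, so most lay beside other genes. Counting a gap once for each of its genes, this list had 3.30 per Mb, against 1.52 over all genes. Zfp genes (3.08), transcription factors of other lineages (2.44) and growth factors (2.11) were also above 1.52, as were ribosomal protein genes (5.40, only 7 genes). Synaptic adhesion (0.976), ion channels (0.584), olfactory receptors (0.415) and cadherins (0.367) were below it. A high density was thus not particular to brain transcription factors.

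Transcription factor genes of other lineages had a desert peak beside them in 16 of 31 cases (51.6%, interval 33.1 to 69.8%), with 4 each beside Runx1, a gene of blood, and Tbx3, and 3 each beside Tfap2c and Eya4. Alx1, Eya1 and Foxf1 had none. Cadherin and protocadherin genes had one in 16 of 24 cases (66.7%, 44.7 to 84.4%), but their gaps were long, with a median of 3173 kb of interior per gene against 249 kb over all genes. Counting a gap once for each of its genes, their density was 0.367 per Mb, against 1.52 over all genes and 0.650 over all gaps of more than 2 Mb. Counting each gap once, the 14 gaps over 2 Mb with such a gene on a side had 0.332 per Mb (0.186 to 0.547), against 0.741 (0.613 to 0.887) in the other 62. In gaps of 1 to 2 Mb the values were 0.310 (0.0639 to 0.906) and 1.14 (1.01 to 1.29), and in shorter ones 0.962 (0.313 to 2.25) and 2.44 (2.27 to 2.62), so the density was lower beside these genes in each length class. Pcdh17 had 6 desert peaks beside it, Cdh26 3 and Cdh2 and Cdh6 2 each, while Cdh10, Cdh12 and Cdh13 had none. Genes of synaptic adhesion and axon guidance had one in 36 of 68 cases (52.9%, 40.4 to 65.2%), at 0.976 per Mb. The latrophilin gene Adgrl2, with gaps on both sides, had 14, and Epha7 had 10, Epha4 8 and Adgrl4 6. The 6 of Adgrl4 lay in the gap that it shares with Adgrl2, so they were counted for both genes. Being on the list does not show a synaptic role of Adgrl4. Adgrl3, Cntn3 and Cntn4 had none.

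Ion channel and neurotransmitter receptor genes had a desert peak beside them in 16 of 63 cases (25.4%, 15.3 to 37.9%), against 36.2% of all genes, a value within that interval. On autosomes it was 16 of 60 (26.7%, 16.1 to 39.7%), against 42.2% of all, a value outside it. The glutamate receptor gene Gria1 had 3, Grik3, Grin2a and the potassium channel gene Kcnn2 had 2 each, and Cacna1e, Cacng3 and Chrm2 had none. Growth factor and morphogen genes had one in 12 of 30 cases (40.0%, 22.7 to 59.4%), with 3 each beside Bmp7 and Bmp4 and 2 each beside Vegfa and Tgfb2, and none beside Bdnf, Dkk2 or Fgf12. Among zinc finger genes named Zfp, 13 of 33 had a desert peak beside them (39.4%, 22.9 to 57.9%), led by Zfp462 with 12, Zfp521 and Zfp608 with 8 and Zfp516 with 6, and none at Zfp169, Zfp281 or Zfp330. Olfactory and vomeronasal receptor genes had one in 2 of 25 cases (8.00%, 0.984 to 26.0%), Olfr267 and Olfr1324, and Olfr1323, Olfr1505 and Olfr164 had none.

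The remaining lists had few members next to a long gap. Cytosolic ribosomal protein genes had a desert peak in 5 of 7 cases, Rps24 with 8, Rpl34 with 4 and Rpl14 and Rpl38 with 3 each, and Rps15a and Rps29 had none. Of genes of other cell types in the tissue, 2 of 4 endothelial genes had one (Emcn 2, Cdh5 1, and none at Kdr or Sox17). Among blood and microglial genes, Ptprc had 5. With so few genes no share was read from these lists. On autosomes alone, where the share over all genes was 42.2%, the larger lists had 72.7% (cadherins and protocadherins, interval 49.8 to 89.3%), 55.4% (synaptic adhesion and axon guidance, 42.5 to 67.7%), 51.6% (transcription factors of other lineages), 42.9% (growth factors and morphogens), 39.4% (Zfp genes) and 4.55% (olfactory and vomeronasal receptors, 0.115 to 22.8%). The intervals of growth factors, Zfp genes and transcription factors of other lineages held the share of all genes with and without X and Y.

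**Figure D4:**
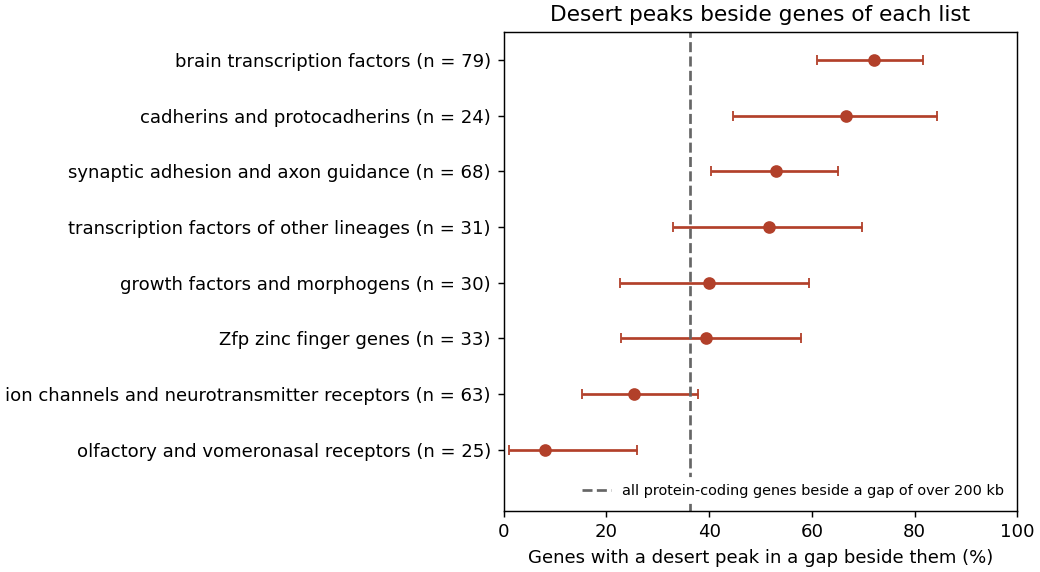
Share of genes (%, horizontal axis) with at least 1 desert peak in a gap beside them, for each list with 20 or more genes next to a gap of over 200 kb (rows, n of such genes), X and Y included; bars are 95% exact binomial intervals and the dashed line is the 36.2% of all 2778 such protein-coding genes. Brain transcription factors stand highest at 72.2% and olfactory and vomeronasal receptors lowest at 8.00%; on autosomes the share of all genes is 42.2%, which lies above the 39.4% of Zfp genes.

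Genes beside desert peaks also had an H2AZ peak at their own ends more often, a measure the choice of peaks did not use. Such a peak, within 1 kb of an end, was present at 55.4% of all 21774 protein-coding genes and at 55.2% of the 2778 next to a long gap. Among these 2778 it was present at 71 of 97 genes with 5 or more desert peaks beside them (73.2%, interval 63.2 to 81.7%), at 68.7% of 444 with 2 to 4, at 62.2% of 466 with 1 and at 49.0% (46.7 to 51.4%) of 1771 with none. On autosomes alone the shares in the same order were 73.2, 68.6, 62.9 and 59.0%, so the step between 1 and none was smaller there, and the interval for 1 (58.3 to 67.4%) overlapped that for none (56.3 to 61.6%). The scores of these gene-end peaks were not higher beside desert peaks, with medians of 15.3 for 5 or more and 17.3 for none.

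The direction of the flanking genes made little difference. Among 1090 gaps whose genes both had a known strand, those with a promoter on both sides had 1.60 desert peaks per Mb (1.39 to 1.84), those with 1 promoter 1.45 (1.31 to 1.60) and those with none 1.37 (1.16 to 1.60), with overlapping intervals. Where exactly 1 side was a promoter, 197 of 384 desert peaks (51.3%, 46.2 to 56.4%) lay in the nearer part to it.

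Chromosomes differed in desert peaks per Mb of interior. Autosomes had 1.75 (1.65 to 1.85), from 1.02 (0.696 to 1.44) on chromosome 15 to 2.54 (2.03 to 3.14) on chromosome 13, and chromosome 12 had the most desert peaks, 98, which were 10.7% of its peaks. The X chromosome had 10 desert peaks in 55.5 Mb of interior, 0.180 per Mb (0.0863 to 0.331), and they were 2.02% of its 494 peaks, against 5.44% on autosomes. That share was within the range of single autosomes, since chromosome 7 had 1.93%. The Y chromosome had none in 46.9 Mb (0 to 0.0787 per Mb) among 2 peaks in all.

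**Figure D5:**
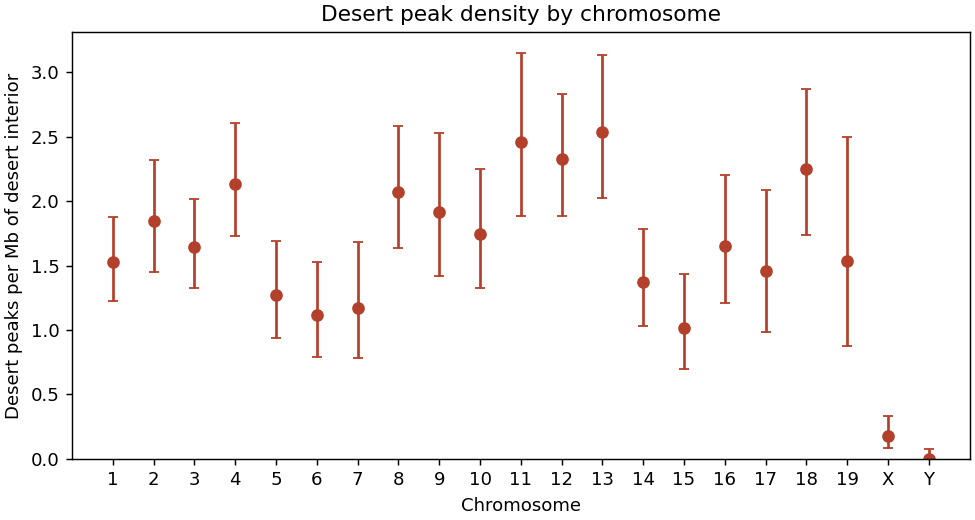
Desert peaks per Mb of desert interior (vertical axis) on each chromosome (horizontal axis), with 95% exact Poisson intervals. The X chromosome, at 0.180 per Mb, and the Y chromosome, at 0, lie below all autosomes, which run from 1.02 to 2.54.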

How the data were processed

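One deposited peak list was analysed. Peak names begin with MACS, a peak caller, per the deposited list. The submitters' processing notes name Bowtie2 2, CASAVA 1.4, FastQC and the build mm9. Caller settings, and whether the input served as control, are not stated in the sources used here. The score is deposited by the authors for each peak, and was used only to choose and describe peaks. Names are numbered up to 32646 but only 21592 peaks are in the list, so a region without a listed peak may have had one in a longer list. The 46 peaks numbered after the last Y peak were left out. Read numbers were not analysed here.

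Positions were read as GRCm38, not mm9, since 11127 of the 21546 peaks then lie within 1 kb of a protein-coding gene end; none was converted. The RefSeq table of GRCm38.p6 gave 49595 genes on chromosomes, 21774 of them protein-coding and 12637 lncRNA; 402 rows on other sequences were left out. Distances ran from the midpoint to gene ends, and from the peak's edges to lncRNA ends. Intervals are exact (Clopper-Pearson or Poisson) or, for medians, from binomial order statistics. No test was made. The peaks and gene lists were chosen with earlier results of these data known. Named genes are those beside the 15 gaps with most desert peaks, the 5 densest and 5 longest empty gaps and the 5 highest, widest and most remote peaks with a gene on both sides, and of each list 4 members with most peaks and 3 without; others, such as Mir137 and the genes of start windows, were named after their values were seen. A few named by these rules are not reported here. Software was Python 3.11.15, numpy 2.4.6, pandas 2.3.3 and scipy 1.17.1, and the computations were tested on simulated data.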

Additional observations from a re-analysis of the deposited data

How the results depend on the processing

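The median width of desert peaks stayed within its interval of 1521 to 1552 bp under all 13 alternatives. The number of desert peaks was 1951 with a limit of 50 kb, 572 with 200 kb and 159 with distances from all annotated genes, and between 1013 and 1357 under the other 10. The density was 1.99 per Mb with 50 kb, 1.10 with 200 kb, 0.690 with all annotated genes, 1.79 with no condition on lncRNA genes, 1.36 with none within 5 kb, 1.34 with scores under 10 and 1.75 on autosomes. The share of brain transcription factors was 33.3% of 9 genes with all annotated genes, whose gaps are fewer, and 67.1 to 75.7% otherwise. The gap with most peaks held 4 with all annotated genes. It was that of Zfp462, with 13, at 50 kb or with lncRNA distances from the midpoint, and that of Rps24, with 16, with no condition on lncRNA genes. The alternatives on autosomes and from the midpoint were chosen after seeing the data. No paired analysis was possible because each group has 1 library and only the peak list was used.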

Other observations

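Desert peaks mostly stood alone, and a few formed tight groups. The median distance from a desert peak to the nearest other one was 98.1 kb between midpoints, 60 (5.19%) had another within 5 kb, and 929 had none within 25 kb. Joining midpoints at most 25 kb apart gave 79 pairs and 22 groups of 3 or more with 69 peaks. After the group of 5 beside Zfp462, the next was a group of 4 within 15.0 kb between Cyria and Mycn (chr12:12679850-12694827, scores of 7.46 to 11.3). The tightest group of 3 was that at Mir137, within 9.97 kb. The next tightest of 3 lay between Arglu1 and Fam155a (11.9 kb, scores of 8.95 to 13.7). Then came groups between Eipr1 and Myt1l (16.7 kb, 9.84 to 14.0), Pdzrn4 and Gxylt1 (19.1 kb) and Cpsf6 and Cpm (19.5 kb). The wider groups of 3 named next were not chosen by rank. One lay between Rbm19 and the LIM homeobox gene Lhx5 (6.26 to 10.7), in an interior of only 32.9 kb. Others lay between Sox9 and Slc39a11 (5.64 to 10.8) and between Rpl34 and Lef1, a transcription factor gene of Wnt signalling (8.28 to 13.7). The gap beside Foxl1 held 2 groups of 3.

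Of the 46 peaks left out for their place in the numbering, 38 met the same limits on distance, score and lncRNA genes, and all 38 lay before the first or after the last protein-coding gene of the chromosome they are listed on.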
